A study of Arabidopsis thaliana with 6 samples.

Results

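Noncoding RNA genes that the deposited table describes as "other RNA" were examined in Arabidopsis thaliana seedlings of 3 genotypes. Of 288 loci with this description, 171 had at least 1 FPKM (fragments scaled to transcript length in kilobases and to library size) in at least 2 of the 6 libraries, and these 171 are the members described here. The members were therefore chosen by their measured level, and the level of a member relative to 1 FPKM is no result. Of the 117 loci left out, 32 were listed at 0 in every library. No locus of the 288 was a named exclusion (AT3G09922 and AT5G03545) or an unannotated intergenic or antisense transcript. The whole table has 32594 loci, of which 17802 reached the same level.

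Total RNA came from seedlings grown for 14 days on MS plates in 16/8 h light and dark at 22 degrees, without treatment, and only ribosomal RNA was removed before sequencing. Col-0 is the wild-type accession. In the apc8-1 mutant the altered gene is APC8, whose product belongs to the APC/C (anaphase promoting complex or cyclosome), which tags cell cycle proteins with ubiquitin for degradation. In the nrpe1-12 mutant it is NRPE1, which encodes the catalytic subunit of RNA polymerase V, and transcripts of that polymerase guide RNA-directed DNA methylation (RdDM). Each genotype had 2 libraries, and the study's title links the APC/C with the RdDM protein DMS3. The labels do not say whether duplicate libraries came from separate plants, and p-values reflect only how far these libraries spread, which may be technical.

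Plants transcribe many RNAs that encode no protein. Some are precursors of small RNAs: transcripts of the TAS genes are cut under the guidance of a microRNA, copied into double-stranded RNA by RDR6 with SGS3, and diced by DCL4 into trans-acting siRNAs that direct the cleavage of other mRNAs. Others are natural antisense transcripts, made from the strand opposite to a coding gene, and still others host microRNAs or small nucleolar RNAs (snoRNAs), which guide the chemical modification of ribosomal RNA. Most genes of this class carry only a locus code and have no described role, and none is given to them here.

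No fragment totals come with the table. From the steps between low values, 1 FPKM was estimated to equal 19.2 and 14.45 fragments for each kilobase in Col-0, 16 and 16.4 for apc8-1 and 16.8 and 14 for nrpe1-12. On this scale the 162 members longer than 400 bases had a median of 40.75 fragments per library, 22 of them had under 10 and 40 had at least 100. The NRPE1 transcript itself had 2.71 and 2.91 FPKM in Col-0 and 6.46 and 5.94 in the libraries labelled nrpe1-12. Its log2 fold change was 0.92 (SE 0.12, adjusted p = 0.000977, limma), and the labels do not state the kind of lesion, so its level does not check the label. APC8 had 1.29 and 1.64 FPKM in Col-0 and 1.80 and 1.93 for apc8-1 and did not pass (adjusted p = 0.306), nor did DMS3 in apc8-1 (adjusted p = 0.222).

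As a check of the tissue, 5 shoot markers summed to 15974 and 15844 FPKM in Col-0, 23082 and 22028 for apc8-1 and 25559 and 24293 for nrpe1-12, and 5 of 5 rose in both mutants. The 7 root markers summed to 21.1 and 21.2 FPKM in Col-0, 1.77 and 1.95 for apc8-1 and 7.96 and 8.69 for nrpe1-12. In every library most of this sum came from NRT2.1 and THAS1. NRT2.1 had 9.61 and 10.3 FPKM in Col-0, 0.112 and 0.329 for apc8-1 and 3.63 and 5.13 for nrpe1-12. THAS1 had 6.93 and 6.77, 1.27 and 1.35, and 4.104 and 3.09 FPKM. The other root markers had at most 1.68 FPKM in a Col-0 library, 0.272 for apc8-1 and 0.267 for nrpe1-12. The intermediate sum in nrpe1-12 thus rests on NRT2.1 and THAS1. Only 3 of the 7 root markers could be tested, and 3 of 3 fell in both mutants. RHD6 was listed at 0 in all apc8-1 and nrpe1-12 libraries and EXPA7 in both apc8-1 libraries. The 3 seed markers, none of which could be tested, summed to 1.74 and 2.26 FPKM in apc8-1 and to 0.0982 to 0.197 in the other libraries. Shoot and root transcripts thus moved with genotype in both comparisons with Col-0. In apc8-1 against nrpe1-12, 1 of the 5 shoot markers was called lower and 0 higher, and 2 of the 3 tested root markers were lower. The part of shoot and root transcripts in the members' differences was not tested. In whole seedlings, fewer cells of a type and less RNA per cell cannot be told apart.

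The members were mostly low. Their median of mean FPKM over the 6 libraries was 3.41, against 8.15 over all tested loci, with 52 members under 2 FPKM and 30 at 10 FPKM or more. Annotated RNA length ran from 204 to 3426 bases with a median of 842, against 1509 for the 16690 tested coding genes. RefSeq lists 101 of the members as lncRNA and 70 as ncRNA. By TAIR10 coordinates, 96 overlapped a coding gene on the other strand, 1 overlapped a coding locus on the same strand, 43 lay within 1 kb of a coding gene and 31 lay farther away. Chromosomes 1 to 5 held 56, 35, 30, 23 and 27 members.

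In total 129 members reached 1 FPKM in every library. A member that reaches it in 1 genotype only had to differ between genotypes, and 4 did so: AT5G10278 in Col-0, AT1G33615 in apc8-1, and AT4G16892 and AT1G26558 in nrpe1-12. Their differences are given as a description. Just inside the limit, the second-highest library of AT4G02005 had 1.00 FPKM, that of AT5G09443 1.08 and that of AT5G01175 1.23. Just outside it were AT2G21188 at 0.998, AT3G44765 at 0.974 and AT2G45245 at 0.957.

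AT1G15405 (chromosome 1, 5297875 to 5298166, minus strand, TAIR10) supplied 56.4 to 68.4% of the members' summed FPKM in a library. It had 2729 and 2782 FPKM in Col-0, 4353 and 3533 for apc8-1 and 2978 and 2514 for nrpe1-12. The apc8-1 libraries lay above the other 4. The log2 fold change in apc8-1 was 0.51 (SE 0.12, adjusted p = 0.0122), and in nrpe1-12 it was -0.01 (adjusted p = 0.963). The apc8-1 call ended in 4 alternative settings, among them leaving out Col-0 replicate 1 or 2 and quantile normalization (0.11, adjusted p = 0.479). Under quantile normalization the nrpe1-12 value became -0.45 (adjusted p = 0.0163). Between the mutants apc8-1 was higher (log2 0.52, adjusted p = 0.0178). That call ended in 4 alternative settings, leaving out apc8-1 replicate 1 or nrpe1-12 library b among them. At 292 bases this RNA is close to the 230 bases by which the step analysis found lengths to be reduced in every library, so its FPKM rests on a short effective length and is not directly comparable with that of longer RNAs. The same holds for the other 8 members of at most 400 bases.

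AT4G13495 (chromosome 4, 7843217 to 7846774, plus strand) was the next in level, with 291 and 291 FPKM in Col-0, 459 and 483 for apc8-1 and 329 and 337 for nrpe1-12. The 3 genotypes did not overlap. It rose 1.62-fold in apc8-1 (log2 fold change 0.69, SE 0.05, adjusted p = 7.75e-05). In nrpe1-12 the log2 fold change was 0.19 (SE 0.05, adjusted p = 0.0338), a call that ended when any Col-0 or nrpe1-12 library was left out (adjusted p = 0.0861 to 0.164), under quantile normalization (0.816) and with ribosomal RNA and organelle genes removed (0.348). By RefSeq coordinates its span holds the microRNA genes MIR5026 and MIR850.

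**Figure D1:**
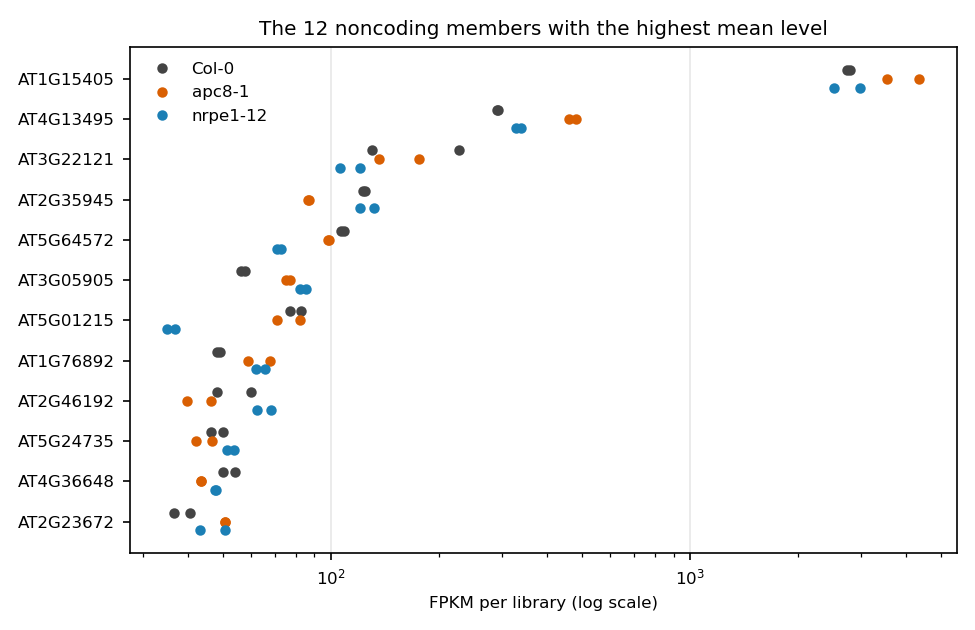
FPKM of the 12 members with the highest mean level, 1 point per library (log axis), coloured by genotype with 2 libraries each. AT1G15405 lies between 2514 and 4353 FPKM, AT4G13495 between 291 and 483, and AT3G22121 spreads from 106 to 228.

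A further 8 members completed the 10 with the highest mean level. AT3G22121 spread widely between duplicates, with 130 and 228 FPKM in Col-0, 136 and 176 for apc8-1 and 121 and 106 for nrpe1-12, and passed no test. AT2G46192, whose span holds 4 snoRNA genes in RefSeq, had 59.9 and 48.2 FPKM in Col-0, 39.6 and 46.2 for apc8-1 and 62.3 and 67.9 for nrpe1-12. It passed neither test against Col-0 (adjusted p = 0.0676 and 0.123), and apc8-1 was below nrpe1-12 (log2 -0.59, SE 0.11, adjusted p = 0.00972). Without nrpe1-12 library b that call ended (adjusted p = 0.0676), whereas the decrease in apc8-1 against Col-0 passed when replicate 2 of Col-0 was left out (-0.48, adjusted p = 0.0278) and when replicate 2 of apc8-1 was (-0.43, adjusted p = 0.048), and the increase in nrpe1-12 without Col-0 replicate 1 (0.42, adjusted p = 0.048). AT5G24735 had 46.4 and 49.9, 42.1 and 46.5, and 53.8 and 51.3 FPKM in Col-0, apc8-1 and nrpe1-12 and passed no test. AT2G35945, AT5G64572, AT3G05905, AT5G01215 and AT1G76892 overlap coding genes and are described with them below.

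Small RNA genes lay wholly inside 5 members. Besides AT4G13495 and AT2G46192, these were TAS1B with MIR5636, AT2G43375 with 2 snoRNA genes, and AT4G30975 with MIR156b, a precursor of the microRNA that represses SPL transcription factors. AT2G43375 had 2.28 and 2.22 FPKM in Col-0, 1.81 and 1.63 for apc8-1 and 1.85 and 2.28 for nrpe1-12. AT4G30975 ranged from 1.18 to 3.36 FPKM with the genotypes overlapping. Neither passed a test (adjusted p = 0.218 to 0.941).

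Among the TAS precursors, the merged TAS1A locus was the single one called, lower in apc8-1. Of 8 TAS loci in the table, TAS3B, TAS3C and TAS4 were at or near 0 (highest value 0.48 FPKM), 4 are members, and TAS1A is counted only in a merged locus with its neighbour AT2G27390. TAS1C (AT2G39675), a source of siRNAs made after cleavage by miR173, had 21.1 and 19.0 FPKM in Col-0, 17.4 and 16.9 for apc8-1 and 18.5 and 21.4 for nrpe1-12. TAS1B (AT1G50055) had 7.27 and 8.43, 5.98 and 6.31, and 6.26 and 6.63 FPKM. TAS2 (AT2G39681), also cut by miR173, had 3.56 and 3.89, 3.25 and 3.19, and 3.91 and 4.26 FPKM. In these 3 RNAs both apc8-1 libraries lay below both Col-0 libraries, and no contrast passed the test (adjusted p = 0.0667 to 0.95). With ribosomal RNA and organelle genes removed, TAS1B passed in apc8-1 (-0.39, adjusted p = 0.0294) and nrpe1-12 (-0.35, adjusted p = 0.042), and TAS1C in apc8-1 (-0.30, adjusted p = 0.0472).

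TAS3 (AT3G17185), the precursor of the siRNAs that target ARF transcripts, spread more, with 3.73 and 5.78 FPKM in Col-0, 10.1 and 5.67 for apc8-1 and 6.56 and 8.00 for nrpe1-12. Its log2 fold changes of 0.60 and 0.54 (SE 0.25 each) did not pass (adjusted p = 0.112 and 0.16), but without apc8-1 replicate 2 the first did (0.97, adjusted p = 0.0193). The merged TAS1A locus had 4.82 and 6.17, 4.02 and 2.68, and 3.98 and 3.74 FPKM and fell in apc8-1 (log2 -0.59, SE 0.17, adjusted p = 0.0369), but its fragments cannot be assigned to TAS1A alone. Over the 5 TAS loci tested, 1 was called lower in apc8-1 and 0 in nrpe1-12, with median log2 fold changes of -0.21 and -0.01. The medians over all tested loci were 0.01 and -0.01, and 16.1 and 12.8% of all tested loci were called lower.

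The proteins that act on TAS RNAs and their target mRNAs were measured in the same libraries. Of 8 machinery genes, all tested, 1 was called lower in apc8-1, through a merged locus, beside 16.1% of all tested loci. In nrpe1-12, 1 was called higher and 1 lower, beside 13.5 and 12.8% of all tested loci. AGO7, the Argonaute that loads miR390 for TAS3 cleavage, is counted in a locus merged with AT1G69450, which had 11.4 and 11.3 FPKM in Col-0, 7.26 and 6.87 for apc8-1 and 9.27 and 8.88 for nrpe1-12. This locus fell in both mutants (log2 -0.61, adjusted p = 0.00154, and -0.29, adjusted p = 0.0453), and its fragments cannot be assigned to AGO7 alone. SDE5, an RNA export-like factor of this pathway, rose in nrpe1-12 from 4.57 and 4.78 to 6.71 and 6.82 FPKM (log2 0.45, adjusted p = 0.0132). RDR6, SGS3, DCL4, AGO1, DRB4 and HEN1 passed in neither mutant.

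Of 15 target genes, 10 could be tested, with 0 higher and 3 lower in apc8-1, and 1 higher and 1 lower in nrpe1-12. Over all tested loci, 14.1% were called higher and 16.1% lower in apc8-1, and 13.5 and 12.8% in nrpe1-12. MYB90, an anthocyanin regulator that TAS4 siRNAs target, had 34.5 and 31.8 FPKM in Col-0, 1.04 and 1.29 for apc8-1 and 7.91 and 6.33 for nrpe1-12 (log2 -3.98 and -2.08, adjusted p = 1.3e-06 and 3.33e-05). PAP1, of the same group, had 17.3 and 15.0 FPKM in Col-0, 1.72 and 2.32 for apc8-1 and 16.4 and 17.6 for nrpe1-12. It fell in apc8-1 (log2 -2.51, adjusted p = 8.7e-06), did not pass in nrpe1-12 (adjusted p = 0.713), and was lower in apc8-1 than in nrpe1-12 (log2 -2.58, adjusted p = 1.6e-05). HTT2, a target of TAS1 siRNAs linked to heat tolerance, had 5.41 and 4.51 FPKM in Col-0, 3.09 and 3.47 for apc8-1 and 7.36 and 6.75 for nrpe1-12. It fell in apc8-1 (log2 -0.48, adjusted p = 0.0223) and rose in nrpe1-12 (log2 0.44, adjusted p = 0.0353).

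GUT15 (AT2G18440), named for a short-lived transcript, had 20.8 and 23.4 FPKM in Col-0, 29.2 and 28.4 for apc8-1 and 26.1 and 26.5 for nrpe1-12. Both mutants lay above Col-0. It rose in apc8-1 (log2 0.37, SE 0.08, adjusted p = 0.00864; 0.29 and adjusted p = 0.0739 without Col-0 replicate 1), whereas nrpe1-12 did not pass (log2 0.24, adjusted p = 0.0534). AT2G36307 carries the symbol ZPR4, a little zipper protein, although the table describes it as other RNA, and it had 1.85 and 3.66, 1.82 and 2.45, and 2.48 and 2.70 FPKM with no test passed (adjusted p = 0.506 to 0.957).

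**Figure D2:**
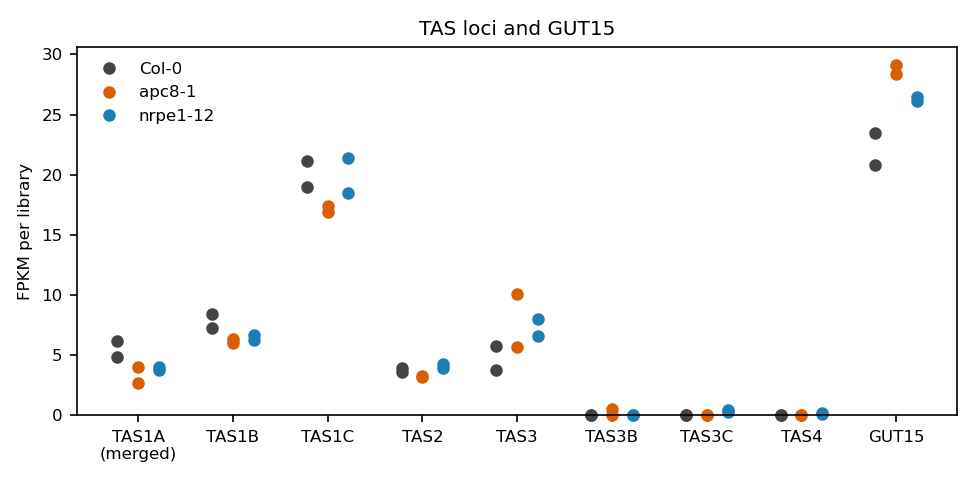
FPKM of the 8 TAS loci and GUT15, 1 point per library, coloured by genotype with 2 libraries each; TAS1A is a locus merged with AT2G27390. TAS1C lies between 16.9 and 21.4, TAS3 between 3.73 and 10.1, TAS3B, TAS3C and TAS4 at or near 0, and GUT15 between 20.8 and 29.2.

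Genes for RNA decay and cap binding, which act on many noncoding RNAs, were tested as a list of 24. In apc8-1, 3 loci rose and 0 fell: XRN2, a nuclear exonuclease (17.2 and 16.4 FPKM in Col-0, 19.7 and 21.0 for apc8-1; log2 0.26, adjusted p = 0.0296), the cap-binding protein CBP20 (log2 0.30, adjusted p = 0.0124), and a locus in which the decapping gene DCP1 is merged with its neighbour AT1G08360. That locus had 121 and 119 FPKM in Col-0, 148 and 143 for apc8-1 (log2 0.28, adjusted p = 0.0149), and its fragments cannot be assigned to DCP1. In nrpe1-12, XRN2 rose (log2 0.39, adjusted p = 0.00642) and no other gene of the list was called. The list's median log2 fold changes were 0.09 and -0.03, beside 0.01 and -0.01 over all tested loci. Of all tested loci, 14.1% were called higher and 16.1% lower in apc8-1, and 13.5 and 12.8% in nrpe1-12. No count of the list is read as particular to it.

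The first comparison asked which of these RNAs the apc8-1 allele altered. In apc8-1 against Col-0, 28 of the 171 members were called higher and 18 lower at an adjusted p below 0.05 (limma, Benjamini-Hochberg over all 17802 tested loci). That is 16.4 and 10.5% of the members, beside 14.1 and 16.1% of all tested loci, and neither share is read as particular to the members. Without the 4 members that reach 1 FPKM in a single genotype, 28 were higher and 17 lower, 16.8 and 10.2% of 167, beside 14.2 and 15.5% of the 17459 loci that remain when the same is done for all. The 28 increases ran from 0.22 to 1.38 on the log2(FPKM + 1) scale and the 18 decreases from -0.25 to -2.04. Changes of at least 2-fold on that scale were called in 4 members upward and 5 downward, 2.34 and 2.92%, beside 0.888 and 4.12% of all loci. The libraries did not overlap in 55 members with higher and 45 with lower values in apc8-1, 32.2 and 26.3%, beside 33.2 and 32.5% of all loci. In either direction the members' shares were 26.9% called, 5.26% called at 2-fold and 58.5% without overlap, beside 30.2, 5.01 and 65.7% of all loci. The members' median log2 fold change was 0.05, with a median SE of 0.17, and that of all loci 0.01, with a median SE of 0.12.

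The split depends on the processing. With ribosomal RNA and organelle genes removed it became 24 higher and 27 lower, with no filter on low values 6 and 8. It was 15 and 14 without Col-0 replicate 1, 20 and 11 without Col-0 replicate 2, and 18 and 14 without apc8-1 replicate 2.

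AT3G29644 (chromosome 3, 11499199 to 11501366, minus strand), the member with the largest increase, had 3.94 and 2.24 FPKM in Col-0, 7.70 and 11.5 for apc8-1 and 8.68 and 7.60 for nrpe1-12. Its log2 fold change in apc8-1 was 1.38 (SE 0.23, adjusted p = 0.00273), a call that ended in 1 alternative setting. The nearest coding gene lies 19450 bp away, and the transposable element gene it touches on the other strand had at most 0.464 FPKM in any library. AT4G12917 (chromosome 4, 7563157 to 7563847) gave 2.15 and 2.25 FPKM in Col-0, 5.17 and 6.52 for apc8-1 and 6.65 and 5.01 for nrpe1-12 (log2 in apc8-1 1.09, SE 0.16, adjusted p = 0.00145). In both RNAs all 4 mutant libraries lay above both Col-0 libraries.

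AT5G36002 (chromosome 5, 14141898 to 14143241, minus strand) gave the tightest of these values, with 3.73 and 3.40 FPKM in Col-0, 7.86 and 7.60 for apc8-1 and 7.83 and 7.65 for nrpe1-12, from an estimated 50 to 134 fragments per library. It rose 2.17-fold in apc8-1 (log2 0.94, SE 0.10, adjusted p = 0.000387). The merged locus of RING/U-box genes on its other strand had 0.0527 to 0.309 FPKM. AT5G20225 (chromosome 5, 6825261 to 6825940) rose from 1.73 and 2.71 to 5.12 and 6.31 FPKM (log2 1.07, SE 0.19, adjusted p = 0.00372), while the locus it overlaps, with zinc knuckle genes, had 22.0 and 23.6 FPKM in Col-0 and 19.9 and 24.6 for apc8-1. AT3G13061, which lies wholly inside ECT5, an m6A reader gene, on the other strand, rose from 5.45 and 5.33 to 10.3 and 9.65 FPKM (log2 0.78, SE 0.13, adjusted p = 0.00277), while ECT5 had 20.03 and 18.9 against 18.8 and 18.7 FPKM and did not pass (adjusted p = 0.643).

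The remaining 5 of the 10 largest increases rest on fewer fragments or wider duplicates. AT1G49952 had 0.462 and 0.313 FPKM in Col-0 and 1.63 and 2.48 for apc8-1 (log2 1.13, adjusted p = 0.00694), an estimated 1 to 9 fragments a library. AT4G20362 had 0.275 and 0.375 FPKM in Col-0 and 0.969 and 2.31 for apc8-1 (log2 0.95, adjusted p = 0.0212), again 1 to 7 fragments. It overlaps RABE1b, at 430 to 551 FPKM, by 95 bp on the other strand, 17.4% of its span. Whether counting used strand is not stated, so fragments of the 2 cannot be told apart there. AT4G20362 was no longer called without Col-0 replicate 1 or 2 or apc8-1 replicate 2 (adjusted p = 0.0972, 0.0693 and 0.092). AT3G59765 (log2 0.91, adjusted p = 0.0345) lost its call without Col-0 replicate 2 or either apc8-1 library (adjusted p = 0.184, 0.0684 and 0.134). AT1G15175 (log2 0.76, adjusted p = 0.0113) lost it without Col-0 replicate 1 or apc8-1 replicate 2 (adjusted p = 0.063 and 0.0661). AT4G36052 (log2 0.72, adjusted p = 0.0237) lost it without either Col-0 library or apc8-1 replicate 2 (adjusted p = 0.0859, 0.102 and 0.122).

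The largest decrease in apc8-1 was that of AT3G12502 (chromosome 3, 3963124 to 3964222, plus strand), with 16.1 and 13.6 FPKM in Col-0, 2.24 and 3.57 for apc8-1 and 9.14 and 7.76 for nrpe1-12. It fell 5.11-fold (log2 -2.04, SE 0.17, adjusted p = 0.000112). It overlaps HCHIB, a basic chitinase gene of defence responses, by 861 bp on the other strand, and HCHIB had 13.6 and 13.4 FPKM in Col-0, 3.19 and 3.47 for apc8-1 and 10.2 and 6.77 for nrpe1-12. Its log2 fold change in apc8-1 was -1.74 (adjusted p = 0.000178). AT5G06865 overlaps PGIP1, a gene for an inhibitor of pathogen polygalacturonases, by 1238 bp and fell from 27.2 and 27.4 to 15.6 and 14.1 FPKM (log2 -0.84, SE 0.08, adjusted p = 0.000176). PGIP1 itself had 1.86 to 5.17 FPKM over the 6 libraries and did not pass (adjusted p = 0.219). AT4G37432 overlaps the cytochrome P450 gene CYP91A2 by 1512 bp and fell from 12.4 and 11.9 to 7.21 and 5.68 FPKM (log2 -0.82, SE 0.11, adjusted p = 0.00118), with CYP91A2 at 0.984 and 1.31 against 0.488 and 0.437 FPKM (log2 -0.55, adjusted p = 0.0348).

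AT1G70185 had 2.29 and 1.89 FPKM in Col-0, 0.531 and 0.554 for apc8-1 and 2.05 and 1.91 for nrpe1-12, so only the apc8-1 libraries stood apart (log2 -1.001, SE 0.15, adjusted p = 0.00177). AT3G52748, which lies 72 bp from FTSZ2-2, a plastid division gene, showed the same order, with 2.74 and 3.73, 0.879 and 0.596, and 3.65 and 2.07 FPKM (log2 -1.28, SE 0.23, adjusted p = 0.00376), from an estimated 2 to 13 fragments. AT1G11185, next to the nuclease gene BFN1 at 31 bp, had 10.8 and 8.49 FPKM in Col-0, 5.58 and 3.53 for apc8-1 and 3.56 and 4.34 for nrpe1-12 (log2 in apc8-1 -0.96, adjusted p = 0.00745; -0.80 and 0.0564 without Col-0 replicate 1). BFN1 fell as well in apc8-1, from 3.19 and 4.65 to 1.13 and 1.34 FPKM (log2 -1.12, adjusted p = 0.00199). AT2G26355 fell from 26.9 and 21.2 to 13.2 and 15.5 FPKM (log2 -0.70, adjusted p = 0.00623). AT2G26692 (log2 -1.22, adjusted p = 0.0136) was no longer called without Col-0 replicate 1 or apc8-1 replicate 1 (adjusted p = 0.0937 and 0.0719), nor AT3G57157 (log2 -1.22, adjusted p = 0.0162) without Col-0 replicate 2 or apc8-1 replicate 1 (adjusted p = 0.0971 and 0.0634). AT5G10278, a member through Col-0 alone, had 1.82 and 1.57 FPKM there, 0.679 and 0.633 for apc8-1 and 0.590 and 0.742 for nrpe1-12.

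**Figure D3:**
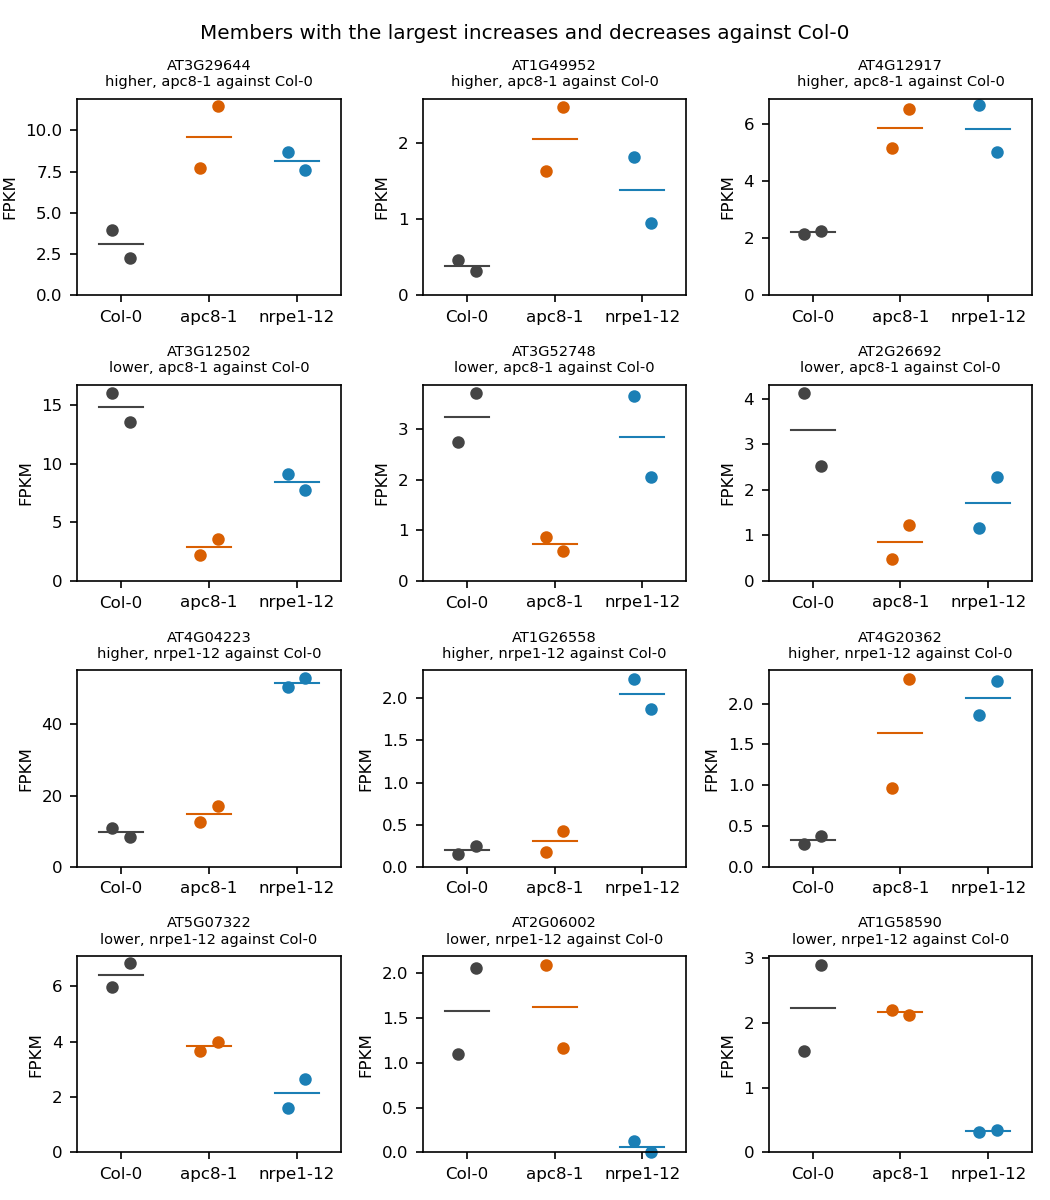
FPKM per library (points) and genotype mean (lines; 2 libraries each) for 3 members per mutant whose increase over Col-0 was largest and 3 whose decrease was largest. AT3G29644 and AT4G12917 were high in both mutants, AT4G04223 reached 50.4 and 52.9 in nrpe1-12, and AT3G12502 was lowest in apc8-1.

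The second comparison asked which of these RNAs changed with NRPE1. In nrpe1-12 against Col-0, 27 members were called higher and 13 lower, 15.8 and 7.6%, beside 13.5 and 12.8% of all tested loci. These counts hold 3 of the 4 members that reach 1 FPKM in a single genotype. Without those 4, 25 were higher and 12 lower, 15 and 7.19% of 167, beside 13.5 and 12.1% of the 17459 loci left by the same rule. The 2-fold counts were then 4 and 6, 2.4 and 3.59%, beside 1.59 and 1.49%. Changes of at least 2-fold on the log2(FPKM + 1) scale were called in 5 members upward and 6 downward, 2.92 and 3.51%, beside 1.75 and 1.88%. The libraries did not overlap in 58 members with higher and 43 with lower values, 33.9 and 25.1%, beside 31.2 and 33.1%. In either direction the same 3 shares were 23.4, 6.43 and 59.1% of the members and 26.3, 3.63 and 64.3% of all loci. The median log2 fold change was 0.02 over the members and -0.01 over all loci. With ribosomal RNA and organelle genes removed, a scaling that moved the median of all loci to -0.115, the split was 22 higher and 23 lower. With no filter on low values it was 6 and 4. It was 16 and 10 without Col-0 replicate 1, 18 and 8 without Col-0 replicate 2, 16 and 9 without nrpe1-12 library a, and 18 and 10 without library b.

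AT4G04223 (chromosome 4, 2036511 to 2037800, plus strand) stood apart from the rest, with 10.99 and 8.32 FPKM in Col-0, 12.7 and 17.0 for apc8-1 and 50.4 and 52.9 for nrpe1-12. It rose 5.35-fold in nrpe1-12 (log2 2.32, SE 0.15, adjusted p = 4.96e-05), the largest increase among the members in that comparison, from an estimated 38 and 67 fragments in the Col-0 libraries to 236 and 270. In apc8-1 the log2 fold change was 0.57 (SE 0.15, adjusted p = 0.0242), and apc8-1 against nrpe1-12 was -1.75 (SE 0.15, adjusted p = 0.00024). Its nearest coding gene, RLP46, a receptor-like protein gene 565 bp away on the same strand, had 1.99 to 3.15 FPKM and did not pass in either mutant (adjusted p = 0.402 and 0.423).

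AT2G36792 (chromosome 2, 15420355 to 15421943, plus strand) gave 10.8 and 11.01 FPKM in Col-0, 12.8 and 12.0 for apc8-1 and 22.1 and 22.7 for nrpe1-12. Its log2 fold change in nrpe1-12 was 0.97 (SE 0.08, adjusted p = 0.000121), and in apc8-1 0.17 (adjusted p = 0.143). It overlaps UGT73C6, a glucosyltransferase gene that acts on flavonols, by 1512 bp on the other strand, and UGT73C6 had 0.252 to 0.790 FPKM. AT1G26558, a member through nrpe1-12 alone, had 0.145 and 0.246 FPKM in Col-0, 0.174 and 0.427 for apc8-1 and 2.23 and 1.87 for nrpe1-12, about 1 fragment a library against 7 and 9. Its neighbour BGLU40, a beta-glucosidase gene at 822 bp on the same strand, rose in nrpe1-12 too, from 6.23 and 6.41 to 9.84 and 8.82 FPKM (log2 0.50, adjusted p = 0.00786).

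The 10 members with the largest increases in apc8-1 did not all rise here, and both comparisons use the same Col-0 libraries. AT4G36052 (log2 fold change 0.06, adjusted p = 0.852), AT3G13061 (0.32, adjusted p = 0.105; 0.0337 without nrpe1-12 library b) and AT3G59765 (0.58, adjusted p = 0.151; 0.0306 without library a) did not pass in nrpe1-12. AT1G15175 rose (0.84, adjusted p = 0.00784; 0.0542 without library b). AT1G49952 rose as well (0.76, adjusted p = 0.0405), a call that ended without either Col-0 library or library a (adjusted p = 0.102 to 0.21). AT3G29644 had a log2 fold change of 1.19 in nrpe1-12 (adjusted p = 0.00625), AT4G12917 1.08 (adjusted p = 0.00174), AT5G36002 0.94 (adjusted p = 0.000439) and AT5G20225 0.88 (adjusted p = 0.0104; 0.0642 without Col-0 replicate 1 and 0.0709 without nrpe1-12 library b). AT4G20362, which overlaps RABE1b, had 1.86 and 2.28 FPKM in nrpe1-12 (log2 1.21, adjusted p = 0.00827), a call that ended without Col-0 replicate 1 or library b. AT1G04425 (log2 0.90, adjusted p = 0.0141) lost its call without Col-0 replicate 1 or library b (adjusted p = 0.0763 and 0.0905), and AT4G31398 (log2 0.98, adjusted p = 0.0137), which lies inside the cohesion gene CTF7, without Col-0 replicate 2 or library a (adjusted p = 0.0823 and 0.0909).

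AT5G01215 (chromosome 5, 84307 to 85917, minus strand) gave the firmest decrease in nrpe1-12, with 82.4 and 76.9 FPKM in Col-0, 82.0 and 70.6 for apc8-1 and 36.7 and 35.1 for nrpe1-12. It fell 2.22-fold (log2 -1.13, SE 0.08, adjusted p = 7.53e-05), while apc8-1 did not pass (log2 -0.06, adjusted p = 0.605). Between the mutants, apc8-1 was above nrpe1-12 (log2 1.06, SE 0.08, adjusted p = 0.000131). Its span overlaps the acyltransferase gene AT5G01210 by 1444 bp on the other strand, and that gene was at 0 in 5 libraries and 0.119 FPKM in the other. An estimated 631 to 2034 fragments a library stood behind these values.

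Some of the other large decreases in nrpe1-12 were those of low members. AT2G06002 had 1.095 and 2.06 FPKM in Col-0, 2.09 and 1.16 for apc8-1 and 0.124 and 0 for nrpe1-12, an estimated 9 to 16 fragments against 1 and 0 (log2 -1.25, SE 0.25, adjusted p = 0.00714; 0.0576 without Col-0 replicate 2). AT1G79075 showed the same order, with 1.63 and 1.24, 1.04 and 1.20, and 0.206 and 0 FPKM (log2 -1.15, SE 0.18, adjusted p = 0.00274), as did AT1G58590 with 1.57 and 2.90, 2.197 and 2.13, and 0.316 and 0.345 FPKM (log2 -1.25, SE 0.21, adjusted p = 0.00338). In these 3 members the nrpe1-12 libraries lay below the other 4. AT5G07322 had 5.98 and 6.82 FPKM in Col-0, 3.66 and 3.999 for apc8-1 and 1.62 and 2.64 for nrpe1-12, and fell in both mutants (log2 -0.62, adjusted p = 0.0283, and -1.26, adjusted p = 0.00126). AT1G11185 fell by 1.104 on the log2 scale (adjusted p = 0.00443). AT3G12502 fell by 0.74 (adjusted p = 0.0156; 0.101 without Col-0 replicate 1 and 0.0919 without library b), and AT4G40085 fell by 0.65 (adjusted p = 0.0135; 0.101 without Col-0 replicate 2 and 0.0736 without library a).

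Both comparisons share the Col-0 libraries, so the number of members called in both is given only as a description. The same joint counts were not made over all tested loci, so none is read as particular to the members. Side by side, 16 members were called higher in both mutants, 7 lower in both, 11 higher in apc8-1 and uncalled in nrpe1-12, 11 lower in apc8-1 and uncalled in nrpe1-12, and, uncalled in apc8-1, 11 higher and 5 lower in nrpe1-12. The 7 lower in both include AT5G10278, a member through Col-0 alone. The 11 higher in nrpe1-12 and uncalled in apc8-1 include AT1G26558 and AT4G16892, members through nrpe1-12 alone. The filter itself required these members to differ between genotypes, so their entries are no result. A single member was called in opposite directions. AT1G10682 had 39.3 and 37.9 FPKM in Col-0, 43.4 and 46.8 for apc8-1 and 32.0 and 32.9 for nrpe1-12 (log2 0.22, adjusted p = 0.0412, and -0.24, adjusted p = 0.0322). These calls are fragile: leaving out any library but apc8-1 replicate 1 ended the first (adjusted p = 0.0564 to 0.2), and leaving out any Col-0 or nrpe1-12 library the second (adjusted p = 0.0842 to 0.173).

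The mutants were compared directly in the third contrast. In apc8-1 against nrpe1-12, 16 members were called higher and 17 lower, 9.36 and 9.94%, beside 7.26 and 11.4% of all tested loci. Without the members that reach 1 FPKM in a single genotype, AT1G26558 and AT4G16892 among those lower, the counts were 16 and 15. That is 9.58 and 8.98% of 167, beside 7.29 and 11.3% of the 17459 loci left by the same rule. Of these, 3 and 4 members were called at 2-fold, 1.8 and 2.4%, beside 0.515 and 2.17%. Libraries did not overlap in 48 and 50 members, 28.1 and 29.2%, beside 28 and 29.5%. At 2-fold, 3 members were higher and 5 lower, 1.75 and 2.92%, beside 0.562 and 2.36%. In either direction the 3 shares were 19.3, 4.68 and 57.3% of the members and 18.7, 2.93 and 57.5% of all loci. The median log2 difference was -0.01 over the members and 0.00144 over all loci. Members higher in apc8-1 were led by AT2G06002 (log2 1.28, adjusted p = 0.00939; 0.0528 without apc8-1 replicate 1 and 0.0591 without nrpe1-12 library b), AT1G58590 (1.249, adjusted p = 0.00508), AT5G01215, AT1G79075 (0.95, adjusted p = 0.00944; 0.0588 without library b) and AT2G19582 (0.66, adjusted p = 0.0327). The last call ended when any apc8-1 or nrpe1-12 library was left out (adjusted p = 0.0793 to 0.127).

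Members lower in apc8-1 than in nrpe1-12 were led by AT4G04223 (log2 -1.75), AT3G12502 (-1.29, adjusted p = 0.00192) and AT1G26558 (-1.23), whose membership rests on nrpe1-12. AT3G52748 followed (-1.13, adjusted p = 0.0113; 0.0547 without apc8-1 replicate 2 and 0.06 without nrpe1-12 library a). AT3G21781 had 0.558 and 0.582 FPKM in apc8-1 and 4.30 and 1.34 in nrpe1-12 (-1.16, adjusted p = 0.0465), a call that ended without any 1 of 5 libraries (adjusted p = 0.0651 to 0.138) and remained without nrpe1-12 library b. The count of members higher in apc8-1 fell to 8 without apc8-1 replicate 2, 9 without library a and 6 without library b, and to 4, with 7 lower, when no filter was set. With a filter of 5 FPKM, which 71 members pass, 9 were higher and 11 lower, and without an intensity trend in the fit 10 were higher.

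**Figure D4:**
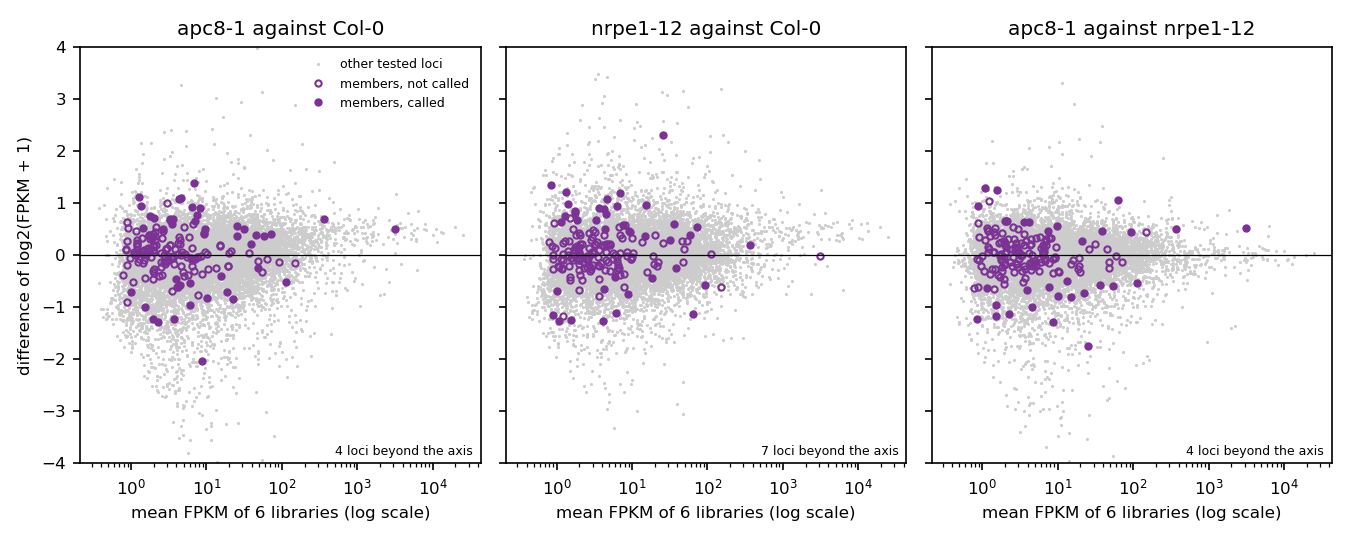
Difference of log2(FPKM + 1) between genotypes against the mean FPKM of the 6 libraries (log axis) in each comparison; grey points are the other tested loci, open circles members not called and filled circles members called at an adjusted p below 0.05. Members lie within the cloud of all loci, with AT4G04223 at 2.32 and AT3G12502 at -2.04 farthest from 0; between 4 and 7 other loci per panel lie beyond the axis.

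Calls were counted by position, length and level, beside 30.2% of all loci called in apc8-1 and 26.3% in nrpe1-12. Those 2 shares cover loci of all levels, and with a filter of 5 FPKM they were 37.7 and 34%. They are therefore no matched reference for a level class. Of the 96 members that overlap a coding gene on the other strand, 14 were called higher and 10 lower in apc8-1, and 13 and 6 in nrpe1-12. Of the 43 within 1 kb of a coding gene, 10 and 6 were called in apc8-1 and 6 and 3 in nrpe1-12, and of the 31 farther away, 4 and 2 and then 7 and 4. By annotated length, 3 of the 9 members of up to 400 bases were called in apc8-1, 23 of 69 longer ones of up to 800 bases, 17 of 73 beyond that up to 1600, and 3 of 20 over 1600 bases. In nrpe1-12 the same classes held 1, 20, 17 and 2 called members. By level, 7 of the 52 members under 2 FPKM were called in apc8-1 and 12 in nrpe1-12, and 15 and 12 of the 30 over 10 FPKM. The calls under 2 FPKM include AT5G10278 in both mutants and AT1G26558 and AT4G16892 in nrpe1-12. These members reach 1 FPKM in a single genotype and so had to differ between genotypes. The counts by position and length keep them too. The median gap between duplicates on the log2 scale was 0.13 in the overlapping members, 0.27 in the near and 0.28 in the distant ones. It was 0.23 in members under 2 FPKM and 0.10 in those over 10 FPKM. No test of a difference between these classes was made.

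Antisense members and the coding genes on the other strand were then set side by side. Largest overlaps had a median of 970 bp, 82.8% of the member's span, and 22 members lay wholly inside the partner. Of the 96 pairs, 66 had a partner that could be tested, and the partner had the higher mean FPKM in 33 of them. The median level was 4.81 FPKM for the partners and 3.54 FPKM for the members. Whether fragments were counted by strand is not stated in the sources used here, so fragments of a member and of its partner cannot be told apart where they overlap. The values of both are therefore given together.

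Some pairs kept a nearly constant ratio. The ratio of member to partner FPKM spanned at most 1.5-fold over the 6 libraries in 13 of the 66 pairs and at most 2-fold in 32. Of the 12 pairs whose member had a mean of at least 10 FPKM, it spanned at most 1.5-fold in 5 and at most 2-fold in 11. The same ratio was not taken for loci that do not overlap, so no count is read as particular to antisense pairs. AT3G05905 and AT3G05900, described as neurofilament protein-related, overlap by 2780 bp. The member had 57.5 and 56.1 FPKM in Col-0, 75.1 and 76.7 for apc8-1 and 82.1 and 85.3 for nrpe1-12, and the partner 17.6 and 17.0, 23.5 and 24.7, and 26.3 and 26.5. Their ratio stayed between 3.11 and 3.31, and both rose in both mutants (member log2 0.41 and 0.55, adjusted p = 0.00126 and 0.000372; partner 0.46 and 0.59, adjusted p = 0.00193 and 0.000681).

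AT2G35945 lies wholly inside BLH1, a BEL1-like homeodomain transcription factor gene. It had 124 and 123 FPKM in Col-0, 86.3 and 86.8 for apc8-1 and 131 and 120 for nrpe1-12, with BLH1 at 38.7 and 37.6, 24.1 and 23.4, and 34.4 and 33.7 FPKM. Both fell in apc8-1 (log2 -0.51 and -0.66, adjusted p = 0.000638 and 0.000223), at a ratio of 3.21 to 3.82. AT5G64572 lies inside XYL4, a beta-xylosidase gene of cell wall remodelling, and had 107 and 108, 98.7 and 97.9, and 70.9 and 72.5 FPKM, with XYL4 at 44.0 and 45.2, 46.1 and 45.0, and 31.9 and 29.1. Both fell in nrpe1-12 (log2 -0.58 and -0.54, adjusted p = 0.000217 and 0.000972), at a ratio of 2.14 to 2.49. AT1G76892 and GT2, a trihelix transcription factor gene, had a ratio of 12.9 to 16.0, with the member at 48.3 and 49.0 FPKM in Col-0, 58.7 and 67.8 for apc8-1 and 61.9 and 65.7 for nrpe1-12. The member's log2 fold changes were 0.37 and 0.39 (adjusted p = 0.00939 and 0.0089), and both calls ended without Col-0 replicate 1 (adjusted p = 0.0592 and 0.0582), the second also without nrpe1-12 library b (adjusted p = 0.0581). GT2 passed in apc8-1 (log2 0.44, adjusted p = 0.0335) and not in nrpe1-12 (0.39, adjusted p = 0.0581).

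**Figure D5:**
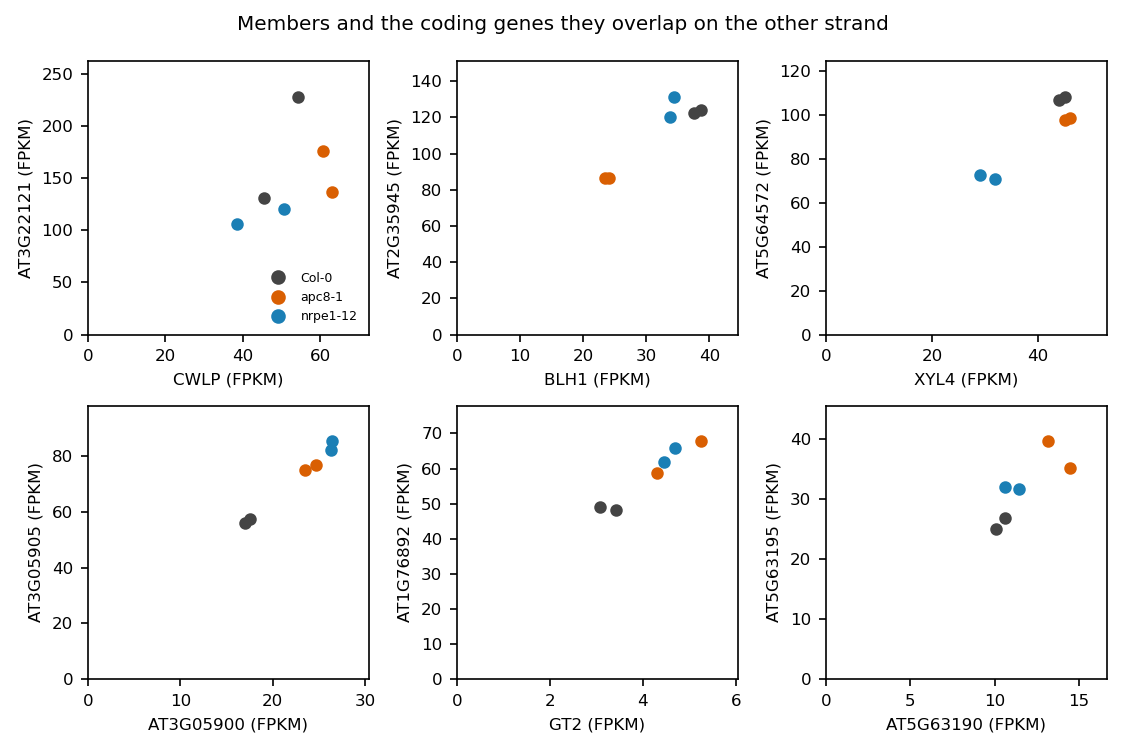
Member FPKM against the FPKM of the coding gene it overlaps on the other strand, 1 point per library and coloured by genotype, for the 6 pairs with the highest member level among those overlapping by more than 500 bp. Points of AT3G05905, AT2G35945 and AT5G64572 lie along a line through the origin, and AT3G22121 spreads with a ratio of 2.16 to 4.21.

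In 34 of the 66 pairs the ratio spanned more than 2-fold. Choosing pairs by this ratio favours those whose member and partner differ in these same libraries. The calls within the 34 are therefore a description only. In 9 of these 34 the member was called in apc8-1, with the partner called the same way in 1, the opposite way in 1 and not called in 7. In 5 of the 34 the member was called in nrpe1-12, with the partner called the same way in 2 and not called in 3. Over all 66 pairs, whatever their ratio, the counts were as follows. In apc8-1, 18 called members had a tested coding partner, and the partner was called the same way in 9, the opposite way in 1 and not called in 8. In nrpe1-12 there were 12 such members, with the partner called the same way in 5 and not called in 7. A partner that was not called does not show a changed ratio: in 3 of those 7 pairs the ratio spanned at most 1.5-fold. Conversely, the partner was called while the member was not in 11 pairs in apc8-1 and 12 in nrpe1-12. Neither was called in 37 pairs in apc8-1 and 42 in nrpe1-12. Over all tested loci, 14.1% were called higher and 16.1% lower in apc8-1, and 13.5 and 12.8% in nrpe1-12. A link between the calls of member and partner was not tested. The 1 pair called in opposite ways in apc8-1, named for that reason, was AT5G53048 with the hydrolase gene AT5G53050. The member had 4.10 and 4.28 FPKM in Col-0 and 2.66 and 2.88 for apc8-1 (log2 -0.46, SE 0.14, adjusted p = 0.036), and the partner 23.6 and 24.8 against 33.5 and 32.8 (log2 0.44, adjusted p = 0.00405). Leaving out any Col-0 or apc8-1 library ended the member's call (adjusted p = 0.0759 to 0.147). AT4G38545, chosen after its values were seen, had 5.29 to 7.40 FPKM in all libraries and passed no test, while the merged locus it lies inside, AT4G38530 with AT4G38540, fell from 26.5 and 27.3 FPKM in Col-0 to 10.8 and 11.7 for apc8-1 and 15.0 and 13.7 for nrpe1-12.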

How the data were processed

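RNA libraries of 14-day seedlings, 2 per genotype, were read from the deposited FPKM table. Per the submitters' processing notes, the authors used the TAIR10 build with TopHat2 2.0.13, Cufflinks 2.2.1 and Cuffnorm 2.2.1, which gave FPKM per locus and library. Whether counting used strand is not stated there. A second deposited sheet gave locus and class codes. The nrpe1-12 columns have identical names and are called library a and library b. RefSeq (TAIR10.1) matched all 171 members by locus code and supplied names, biotypes and neighbours, while positions are printed as deposited.

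Values were taken as log2(FPKM + 1), so fold changes of low genes are understated. Every locus reaching 1 FPKM in 2 or more libraries entered a single limma 3.58.1 model (R 4.3.3; lmFit, then eBayes with trend) over the 6 libraries, whose residual and prior degrees of freedom were 3 and 4.93. Calls were made at a Benjamini-Hochberg adjusted p below 0.05 over all tested loci. An exact permutation test of 2 against 2 libraries cannot go below p = 0.333. Fold ratios printed are ratios of genotype means. Fragment numbers came from the spacing of low FPKM values in single-exon loci longer than 1500 bases, where 99.1 to 100% of values were whole to a tolerance of 0.15.

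Named members were, per mutant against Col-0, up to 10 with the largest increase and 10 with the largest decrease among called members whose libraries did not overlap; 5 and 5 between the mutants; the 10 with the highest mean; those with a symbol; and up to 4 genes per list with the smallest p. The members, lists and rules were chosen with earlier results of these data known. Alternatives were pseudocounts of 0.1 and 0.5 FPKM, no filter, a filter of 5 FPKM, median-of-ratios scaling, quantile normalization, organelle and ribosomal RNA genes left out, no trend, fits of 2 genotypes, a replicate block and each library left out.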

Additional observations from a re-analysis of the deposited data

How the results depend on the processing

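With no filter on low values, calls dropped to 6 higher and 8 lower members in apc8-1, 6 and 4 in nrpe1-12, and 4 and 7 between the mutants, as 10.1, 7.94 and 4.49% of all loci were then called. Under that setting 45 named results weakened, 60 stayed the same and 1 was stronger. In apc8-1 the calls of AT1G49952, AT2G26355, AT3G13061, AT3G29644, AT3G52748, AT5G10278 and AT5G20225 each ended in 1 alternative setting. So did those of AT1G11185, AT1G58590, AT3G29644, AT4G12917, AT5G07322 and AT5G10278 in nrpe1-12. When organelle and ribosomal RNA genes were removed, 23 members were lower in nrpe1-12. A filter of 5 FPKM left 9 higher and 11 lower between the mutants, where fewer members were tested, and without a trend 10 were higher; the cause of the last was not tested. Leave-one-out fits aside, the other settings, pseudocounts and scalings among them, kept these counts within 1.5 times. Over leave-one-out fits, where a lone library is assumed to vary like the other groups, apc8-1 had 15 to 28 higher and 11 to 19 lower, nrpe1-12 16 to 26 and 8 to 16, and the contrast between mutants 6 to 12 and 12 to 16. Replicate numbers of Col-0 and apc8-1 did not pair the libraries (correlation of deviations -0.0585 over 17802 loci), and the replicate block gave 29 and 19 against 27 and 19 without it. Depth limits the 22 members with under 10 fragments.

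Directions turned only for values near 0 that passed no test. In nrpe1-12 against Col-0, leave-one-out values ran from -0.13 to 0.11 for AT1G15405, -0.038 to 0.0894 for AT2G35945, -0.113 to 0.0909 for TAS1C (AT2G39675), -0.0202 to 0.142 for AT4G36052 and -0.38 to 0.33 for ZPR4 (AT2G36307). In apc8-1 they ran from -0.56 to 0.25 for AT3G22121, -0.171 to 0.0418 for AT5G01215 and -0.58 to 0.13 for AT2G36307, and between the mutants from -0.118 to 0.0868 for AT1G76892 and -0.31 to 0.43 for TAS3 (AT3G17185). Quantile normalization gave -0.0685 for AT2G35945 and 0.0348 for AT2G36307 in nrpe1-12 and 0.00961 for AT1G76892 between the mutants, and removing organelle and ribosomal RNA genes -0.0936 for AT2G35945 and -0.0107 for AT4G36052 in nrpe1-12 and 0.014 for AT1G76892 between the mutants. The cause was not tested.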
